A study of Homo sapiens with 6 samples.

Results

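Semaphorins, plexins and neuropilins form a ligand and receptor family that was first known for steering axons and is also studied in blood vessels, immune cells and tumors. The members described here are the genes on the array whose symbols name a semaphorin of class 3 to class 7, a plexin of type A to D, or neuropilin 1 or 2. There were 30 such genes, 19 semaphorins, 9 plexins and 2 neuropilins, among 18372 genes with a probe set that carries 1 gene symbol, and a gene with several probe sets was read from the brightest on average. The rule used symbols and the mean level, not the difference between groups. The members and the gene lists below were nevertheless chosen with earlier results of these data known. Shares called among them are descriptions, not independent tests. SEMA4C was not analysed here.

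Both groups were cultures of A375 cells, a human melanoma line long established in culture, and both were harvested 72 h after transfection. The control siRNA group (3 arrays) received a negative control siRNA, and the siFAH group (3 arrays) received siRNA against FAH, which encodes fumarylacetoacetate hydrolase, the last enzyme of tyrosine breakdown. The study profiled these cells to find which transcripts differ when FAH is silenced. The labels give 1 name, siFAH, for the silencing reagent, so an effect of losing FAH and an effect of the siRNA itself cannot be told apart. The design text calls the arrays of a group biological replicates without saying how the cultures were kept separate, so p values measure only the spread between these arrays.

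Class 3 semaphorins are secreted, and most of them bind a neuropilin, which then signals through an A-type or D-type plexin. The semaphorins of class 4, class 5 and class 6 span the membrane and mostly bind plexins directly, and SEMA7A is held at the membrane by a lipid anchor. Plexins carry a GTPase-activating domain inside the cell and act on small GTPases, the cytoskeleton and integrin adhesion. Neuropilins also bind vascular endothelial growth factors, so ligands of both kinds meet at the same coreceptor. Melanocytes descend from the neural crest, whose migration in the embryo is guided in part by class 3 semaphorins.

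Each value is a log2 signal of 1 probe set on 1 array, after robust multichip analysis (RMA), which corrects background, scales arrays against each other and summarises the probes. A difference of 1 on this scale is a doubling, and differences are always siFAH minus control siRNA. Probe sets differ in how brightly they respond to the same amount of RNA, so signals were compared between arrays for 1 gene, and their order across genes is not an order of transcript amounts. A gene was called higher or lower where limma's p, after Benjamini-Hochberg adjustment across the 18372 genes, was under 0.05. By that rule 3.48% of all genes (639) were called higher and 6.38% (1172) lower. Because every array read a whole culture, a change in the share of cells that express a gene and a change in RNA per cell cannot be told apart. Arrays within a group correlated at r = 0.995 to 0.997 over all genes and arrays of different groups at 0.9881 to 0.9953, a description across genes, which are not independent replicates.

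The gene targeted by the siRNA was lower in siFAH. FAH gave 5.48, 5.59 and 5.68 on the control siRNA arrays and 4.92, 4.60 and 4.92 on the siFAH arrays, so the groups did not overlap. Its mean moved from 5.58 ± 0.0998 (SD, n = 3) to 4.81 ± 0.187 (SD, n = 3), a log2 fold change of -0.77 (SE 0.098, adjusted p = 0.00213, limma). Among 11 melanocytic and melanoma markers tested, 7 lay above the detection limit defined below, with SOX10 at a mean of 8.46, PRAME at 8.18, CSPG4 at 7.71 and S100B at 7.29. The pigment genes PMEL (3.88), MLANA (3.03), TYR (2.93) and TYRP1 (2.90) lay under it. Among these markers CSPG4 (-0.67) and PRAME (-0.33) were called lower and TFAP2A (0.43) higher, while the mean signal of the list spanned 5.69 to 5.79 over the control arrays and was 5.74 on every siFAH array. No leukocyte marker of 4 was above the limit, and 1 of 5 endothelial markers (CLDN5) and 2 of 5 keratinocyte markers (KRT14, KRT10) were. KRT10, a keratin, was called higher in siFAH (log2 fold change 0.45, adjusted p = 0.0213, limma). The mean signal of the 5 keratinocyte markers spanned 4.09 to 4.26 over the control arrays and 4.20 to 4.40 over the siFAH arrays. KRT5 (4.06), KRT1 (3.82) and DSG3 (2.98) lay under the limit and were not called. The study states that its cell lines were authenticated, and any part of other cells in these results was not tested.

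Of the 30 genes, 4 rose and 1 fell in siFAH, and 25 were not called. Those that rose were the membrane semaphorin SEMA6A, the secreted semaphorins SEMA3C and SEMA3E, and the coreceptor NRP1. SEMA3D, another secreted semaphorin, fell. No plexin was called in either direction. The share called higher was 13.3% of the members, against the 3.48% of all genes given above, and the share called lower was 3.33%, against 6.38%. The median log2 fold change of the members was -0.0099, close to the 0.005 of all genes, with 14 members positive and 16 negative.

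**Figure D1:**
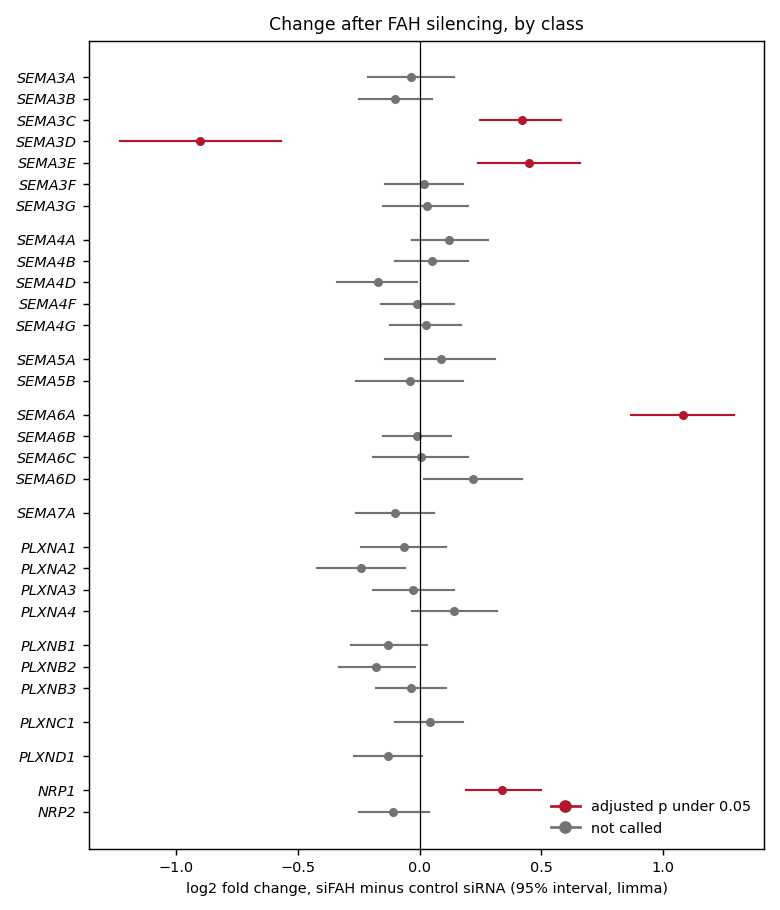
Log2 fold change (horizontal axis, siFAH minus control siRNA) of each of the 30 genes, grouped by class on the vertical axis. Points are limma estimates, bars are 95% intervals, and red marks an adjusted p under 0.05. SEMA6A at 1.08 and SEMA3D at -0.90 lie far from 0, SEMA3E, SEMA3C and NRP1 lie between 0.34 and 0.45, and every plexin lies between -0.24 and 0.14.

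A second count, which needs no variance model, asked whether all 3 siFAH arrays lay on 1 side of all 3 control arrays. The siFAH arrays lay above for 6 members (20.0%), against 13.4% of all genes, and below for 7 members (23.3%), against 18.6% of all genes. At the limits named in the study's methods, at least 1.2-fold and p under 0.05, here applied to limma's unadjusted p, 4 members were higher against 4.74% of all genes, and 1 was lower against 7.83% of all genes. These were the same 5 genes as those called after adjustment. At an unadjusted limma p under 0.05 with no limit on the fold, 5 members were higher against 10.8% of all genes, and 4 were lower against 15.3%.

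The table holds no detection p values, so detection was read against genes that melanoma cells are taken not to express. The 339 olfactory receptor genes on the array had a median signal of 2.98 and a 95th percentile of 4.41, and a gene was counted as above the detection limit where its mean over the 6 arrays passed 4.41. By this rule 23 of the 30 members (76.7%) were above the limit, against 71.0% of all genes. They comprised all 7 class 3 semaphorins, 4 of 5 in class 4, 1 of 2 in class 5, 2 of 4 in class 6, SEMA7A, 6 of 9 plexins and both neuropilins. The limit depends on the reference. With 67 keratin-associated protein genes in its place the 95th percentile was 6.34 and only 7 members passed.

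SEMA3C had a mean signal of 8.97, brighter than 97.1% of all genes tested, and PLXNB2 a mean of 7.94, brighter than 91.5%. The others above 6.34 were SEMA3A (7.12), SEMA6B (6.97), NRP2 (6.77), SEMA3B (6.70) and SEMA7A (6.45). Those are the 7 members above both references. Between 5 and 6.34 lay PLXNB3 (6.29), PLXNA1 (6.24), NRP1 (6.20), PLXND1 (6.11), SEMA4B (5.72), SEMA4G (5.70), SEMA6A (5.65), PLXNB1 (5.63), SEMA4D (5.63), SEMA3F (5.50) and PLXNA3 (5.10). Nearest the limit from above were SEMA4F (4.97), SEMA3D (4.96), SEMA3G (4.96), SEMA3E (4.59) and SEMA5B (4.47). At or under the limit lay SEMA6C (4.37), PLXNA4 (4.20), SEMA4A (4.11), PLXNA2 (4.08), SEMA5A (4.02), PLXNC1 (3.71) and SEMA6D (3.65). The signals of these 7 cannot be told from those of the reference genes, so their differences between groups say little about a transcript.

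**Figure D2:**
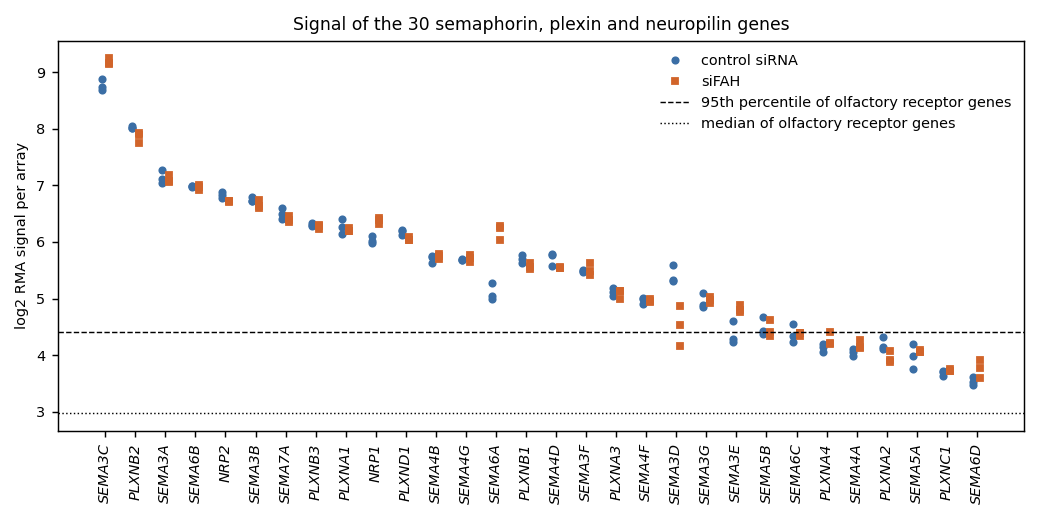
Log2 RMA signal (vertical axis) of each of the 30 genes (horizontal axis, ordered by mean) on every array, blue circles for control siRNA and orange squares for siFAH. The dashed line is the 95th percentile (4.41) and the dotted line the median (2.98) of 339 olfactory receptor genes, and the 7 genes at the right end have means at or under the dashed line.

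Among the ligands, SEMA6A showed the largest change of the family in the reported fit. SEMA6A (probe set 8113666) is a membrane semaphorin that binds plexins A2 and A4. It gave 5.05, 5.28 and 5.0 on the control siRNA arrays and 6.25, 6.29 and 6.04 on the siFAH arrays. The lowest siFAH array lay well above the highest control array. The means were 5.11 ± 0.151 and 6.19 ± 0.134 (SD, n = 3 each), a log2 fold change of 1.08 (SE 0.095, 95% interval 0.87 to 1.29) or 2.12-fold, with an adjusted p of 0.000517 (limma). Ordered by log2 fold change, SEMA6A stood at place 9 from the top of all 18372 genes tested. Its known receptors were both under the detection limit. PLXNA2 gave 4.15, 4.11 and 4.32 against 4.08, 3.91 and 3.88 (log2 fold change -0.24, 95% interval -0.42 to -0.06, adjusted p = 0.0966, limma), and PLXNA4 gave 4.15, 4.19 and 4.05 against 4.20, 4.22 and 4.41 (log2 fold change 0.14, adjusted p = 0.275, limma). Neither passed the test, although the arrays of the groups did not overlap for either gene.

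The other class 6 ligands were not called. SEMA6B had a log2 fold change of -0.011 (95% interval -0.15 to 0.13). SEMA6C had 0.0058 (-0.19 to 0.20) at a mean just under the detection limit. SEMA6D, the dimmest member, had 0.22 (0.02 to 0.42, adjusted p = 0.148, limma), and its siFAH arrays (3.59, 3.78 and 3.92) overlapped the control arrays (3.53, 3.61 and 3.47).

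Of the 7 class 3 genes, 2 were called higher (28.6%, against 3.48% of all genes) and 1 lower (14.3%, against 6.38%), and the median log2 fold change was 0.018. SEMA3C (probe set 8140534), a secreted ligand that signals through neuropilins with plexin D1 or A-type plexins, gave 8.69, 8.73 and 8.88 on the control siRNA arrays and 9.16, 9.15 and 9.24 on the siFAH arrays. All siFAH arrays were higher than all control arrays. The means were 8.76 ± 0.0998 and 9.18 ± 0.0495 (SD, n = 3 each), a log2 fold change of 0.42 (SE 0.074, 95% interval 0.25 to 0.58), 1.34-fold, with an adjusted p of 0.00852 (limma). Bright genes in general moved the other way on these arrays. The median log2 fold change of the brightest decile of genes, which holds SEMA3C, was -0.11, against 0.048 in the dimmest decile. Scaling methods that level this trend gave SEMA3C a larger difference, 0.49 after quantile normalization and 0.52 after cyclic loess.

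SEMA3E (probe set 8140650) differs from the rest of its class in binding plexin D1 without needing a neuropilin. Its signals were 4.23, 4.28 and 4.60 on the control siRNA arrays and 4.80, 4.88 and 4.77 on the siFAH arrays. The groups did not overlap, but control siRNA replicates 1 and 2 lay under the detection limit of 4.41. From 4.37 ± 0.198 to 4.82 ± 0.0536 (SD, n = 3 each), the log2 fold change was 0.45 (SE 0.096, 95% interval 0.24 to 0.66), 1.36-fold, with an adjusted p of 0.0183 (limma). Near the limit a fold change on an array can understate a change in RNA where background remains in the signal after correction. Whether it does so for SEMA3E was not tested. The call was lost without control siRNA replicate 2, without siFAH replicate 2 or without siFAH replicate 3, where the adjusted p reached 0.0715 (limma).

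SEMA3D (probe set 8140686), which guides endothelial cells through neuropilin 1, moved opposite to both. The control siRNA arrays gave 5.33, 5.31 and 5.60, and the siFAH arrays gave 4.53, 4.86 and 4.16, the last of which is under the detection limit. Every siFAH array was below every control array, and the siFAH arrays were the more scattered. The means were 5.41 ± 0.160 and 4.52 ± 0.349 (SD, n = 3 each), a log2 fold change of -0.90 (SE 0.15, 95% interval -1.23 to -0.57), 0.537 times the control level, with an adjusted p of 0.00642 (limma). SEMA3D stood at place 10 from the bottom of all genes tested. With any 1 array left out it was still called, at -1.07 to -0.72.

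The remaining class 3 ligands were not called. SEMA3A, the founding repellent of the class, which signals through NRP1, had a log2 fold change of -0.036 (95% interval -0.21 to 0.14), and its arrays overlapped between 7.04 and 7.27 in the controls and 7.06 and 7.18 in siFAH. SEMA3B and SEMA3F, neighbors in a region of chromosome 3 often lost in lung cancer, had -0.099 (-0.25 to 0.05) and 0.018 (-0.14 to 0.18). SEMA3G, expressed mainly in endothelium, had 0.029 (-0.15 to 0.20). The intervals of SEMA3A, SEMA3B, SEMA3F and SEMA3G leave room for small changes in either direction.

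**Figure D3:**
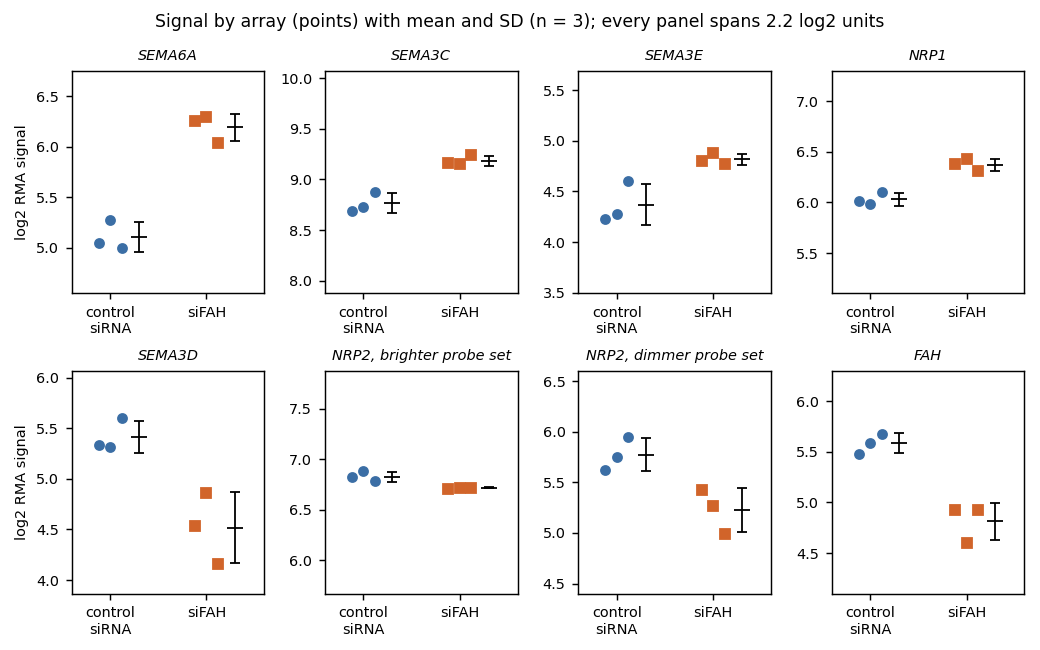
Log2 RMA signal (vertical axis) of the 5 called genes, both probe sets of NRP2 and FAH on each array, with blue circles for control siRNA and orange squares for siFAH. Black marks are the mean and SD of 3 arrays, and all panels span the same range. The groups are apart in each panel, by the smallest margin in the brighter NRP2 probe set.

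The class 3 genes that were called lie on the same stretch of chromosome 7. In the gene order of RefSeq (GRCh38.p14), used here for neighbors only, the 7 tested genes from SEMA3C to SEMA3D are SEMA3C, HGF, CACNA2D1, PCLO, SEMA3E, SEMA3A and SEMA3D. HGF, CACNA2D1 and PCLO were named for their place there, after values were seen. CACNA2D1, a calcium channel subunit, rose by 0.28 (adjusted p = 0.0355, limma) from 6.06, 6.02 and 6.20 to 6.36, 6.36 and 6.39. HGF, the growth factor that activates the receptor MET, was called higher at 0.31 (adjusted p = 0.0415, limma), but its mean of 2.93 was under the detection limit. PCLO, a presynaptic scaffold protein, had -0.10 (adjusted p = 0.396, limma). Neighboring genes thus differed in direction: SEMA3E was higher, SEMA3A was not called and SEMA3D was lower.

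The promoters of the 3 called class 3 genes are shown because these genes lie on the same stretch of chromosome 7, with other genes between them, and differed in direction. Promoter sequences of 26 of the 30 members, with 47 start sites, were matched by symbol in RefSeq (GRCh38.p14). NRP1, SEMA3A, SEMA6A and SEMA6B were not among them. Each line gives the 250 bases before a transcription start, 5′ to 3′ on the minus strand that the gene uses. Where a gene had more than 1 start, the one with the most CpG dinucleotides is shown. Capitals mark matches, on either strand, to the E-box CACGTG bound by MITF and MYC factors or the GC box GGGCGG bound by Sp1 factors. The positions are chr7:80919052-80919301 for SEMA3C, chr7:83649140-83649389 for SEMA3E and chr7:85187057-85187306 for SEMA3D.
SEMA3C: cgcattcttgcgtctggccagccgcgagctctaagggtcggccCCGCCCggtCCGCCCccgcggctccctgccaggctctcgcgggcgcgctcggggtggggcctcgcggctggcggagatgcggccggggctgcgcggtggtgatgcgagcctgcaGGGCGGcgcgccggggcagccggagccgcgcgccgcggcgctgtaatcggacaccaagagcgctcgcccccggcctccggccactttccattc
SEMA3E: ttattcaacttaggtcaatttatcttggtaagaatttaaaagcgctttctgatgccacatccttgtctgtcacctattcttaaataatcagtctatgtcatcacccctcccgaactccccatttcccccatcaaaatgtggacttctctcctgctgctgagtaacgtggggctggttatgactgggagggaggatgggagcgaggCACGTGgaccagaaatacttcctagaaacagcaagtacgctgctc
SEMA3D: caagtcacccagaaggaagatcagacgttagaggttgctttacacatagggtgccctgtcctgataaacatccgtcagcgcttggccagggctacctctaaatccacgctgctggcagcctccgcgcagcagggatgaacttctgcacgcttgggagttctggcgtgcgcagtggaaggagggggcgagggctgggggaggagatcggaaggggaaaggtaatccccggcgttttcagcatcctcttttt

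The 3 promoters shown differ in base composition. That of SEMA3C is 77.6% G and C with 39 CpG dinucleotides, more than in 97.3% of the 35116 human promoters in the table, whose median was 11. It holds 3 matches to GGGCGG, a motif found in 42.6% of all promoters. That of SEMA3E is 46.4% G and C with 6 CpG, more than in 38.1% of promoters, and holds 1 match to CACGTG, found in 6.34% of all promoters. That of SEMA3D has 57.6% G and C and 13 CpG, more than in 53.4% of promoters, and no match to either. Matches to TGANTCA, bound by AP-1 (6.57% of all promoters), and to TGATGNAA, bound by ATF4 with C/EBP partners (3.14%), were searched on both strands and none was found in these windows. A match is a description of the letters and no evidence of binding. The composition depends on the start shown. The other start of SEMA3C has 36.4% G and C with 2 CpG, and that of SEMA3E has 34.8% with 1 CpG. Since the starts shown for SEMA3C and SEMA3E were picked for CpG, their ranks among all promoters are raised by that choice.

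The 5 class 4 semaphorins, membrane ligands of B-type plexins, were not called, with log2 fold changes of -0.17 to 0.12 and a median of 0.025. SEMA4D, the ligand of PLXNB1 that also acts on lymphocytes, came nearest. It gave 5.57, 5.77 and 5.79 against 5.54, 5.55 and 5.54, so all siFAH arrays were lower by a small margin (log2 fold change -0.17, 95% interval -0.34 to -0.01, adjusted p = 0.179, limma). A dimmer probe set of SEMA4D, whose mean is under the detection limit in both groups, had the opposite sign (4.15, 4.01 and 3.71 against 4.20, 3.97 and 4.40, log2 fold change 0.23, adjusted p = 0.288 among 19291 probe sets, limma). SEMA4A, studied mainly in immune cells, had 0.12 (-0.03 to 0.28) at a level under the limit. SEMA4B had 0.052 (-0.10 to 0.20), SEMA4G 0.025 (-0.12 to 0.17) and SEMA4F -0.0087 (-0.16 to 0.14). The class 5 semaphorins, which carry thrombospondin repeats, had log2 fold changes of 0.089 (SEMA5A, -0.14 to 0.31) and -0.039 (SEMA5B, -0.26 to 0.18). SEMA7A, a ligand of PLXNC1 and of beta 1 integrins, had -0.10 (-0.26 to 0.06).

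No plexin passed the test. The 9 genes had log2 fold changes of -0.24 to 0.14 with a median of -0.062, and 7 of them were negative. Their 95% intervals ran from -0.42 at the lowest to 0.32 at the highest, so larger changes in signal lie outside them, although for PLXNA2, PLXNA4 and PLXNC1 the signals were under the detection limit. In 4 plexins (44.4%) all siFAH arrays were below all control arrays, against 18.6% of all genes, and in 1 (11.1%) they were above, against 13.4%. Of these, PLXNA2 (below) and PLXNA4 (above) had signals under the detection limit. Among all genes above that limit, the siFAH arrays were below for 3218 of 13040.

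PLXNB2, a receptor for class 4 semaphorins, was the brightest of the group. It gave 8.01, 8.02 and 8.05 on the control siRNA arrays and 7.88, 7.93 and 7.74 on the siFAH arrays. The arrays did not overlap, but the difference of -0.18 (95% interval -0.33 to -0.02, adjusted p = 0.151, limma) did not pass the test. It is to be read beside the median of -0.11 for genes of like brightness, and after cyclic loess it was -0.072. PLXNB1, the receptor of SEMA4D, had -0.13 (-0.28 to 0.03), and PLXNB3, a receptor of SEMA5A, had -0.035 (-0.18 to 0.11).

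PLXND1, the receptor of SEMA3E, gave 6.13, 6.19 and 6.21 against 6.03, 6.03 and 6.08. The siFAH arrays were all slightly lower, without passing the test (log2 fold change -0.13, 95% interval -0.27 to 0.01, adjusted p = 0.238, limma). Among the A-type plexins, which signal for neuropilins and for class 6 ligands, PLXNA1 had -0.062 (-0.24 to 0.11) and PLXNA3 had -0.026 (-0.19 to 0.14). PLXNC1, the receptor of SEMA7A, had 0.042 (-0.10 to 0.18) at a mean of 3.71, under the limit.

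The coreceptors differed from each other. NRP1 (probe set 7932985), which binds class 3 semaphorins and VEGF-A, gave 6.01, 5.98 and 6.10 on the control siRNA arrays and 6.38, 6.43 and 6.31 on the siFAH arrays. The siFAH arrays were all higher. The means were 6.03 ± 0.0642 and 6.37 ± 0.0606 (SD, n = 3 each), a log2 fold change of 0.34 (SE 0.070, 95% interval 0.19 to 0.50), 1.27-fold, with an adjusted p of 0.0148 (limma). The size stayed within 0.32 to 0.39 under 16 other ways of processing. The call was lost without control siRNA replicate 2 or without siFAH replicate 2, where the adjusted p reached 0.0659 (limma), and also in the fit with the replicate number as a block.

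NRP2, the preferred coreceptor of SEMA3F and of VEGF-C, moved in the same direction in both of its probe sets, but only 1 was called. The brighter one (8047738) gave 6.82, 6.88 and 6.78 against 6.71, 6.72 and 6.72, and was not called (log2 fold change -0.11, 95% interval -0.25 to 0.04, adjusted p = 0.333, limma). The dimmer one (8047763) gave 5.62, 5.75 and 5.95 against 5.42, 5.27 and 4.99. Both were lower in every siFAH array than in every control array. With every probe set tested, the dimmer one was lower by a called margin (log2 fold change -0.55, SE 0.12, adjusted p = 0.0190 among 19291 probe sets, limma). That call held in 2 of the 6 fits that leave out 1 array and was lost without control siRNA replicate 2 or 3 and without siFAH replicate 2 or 3, where the adjusted p reached 0.0775. The gap between the probe sets on the same array was 1.05 ± 0.198 in the controls and 1.49 ± 0.223 in siFAH (n = 3 each), and it was larger in all siFAH arrays (two-sided exact permutation p = 0.1, the smallest that 3 against 3 arrays allow). The platform annotation ties the NRP2 probe sets to different transcript records. For SEMA4D, which also has 2 probe sets, the gap was 1.76 ± 0.33 in the controls and 1.35 ± 0.223 in siFAH (SD, n = 3 each). The arrays overlapped there (two-sided exact permutation p = 0.2).

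**Figure D4:**
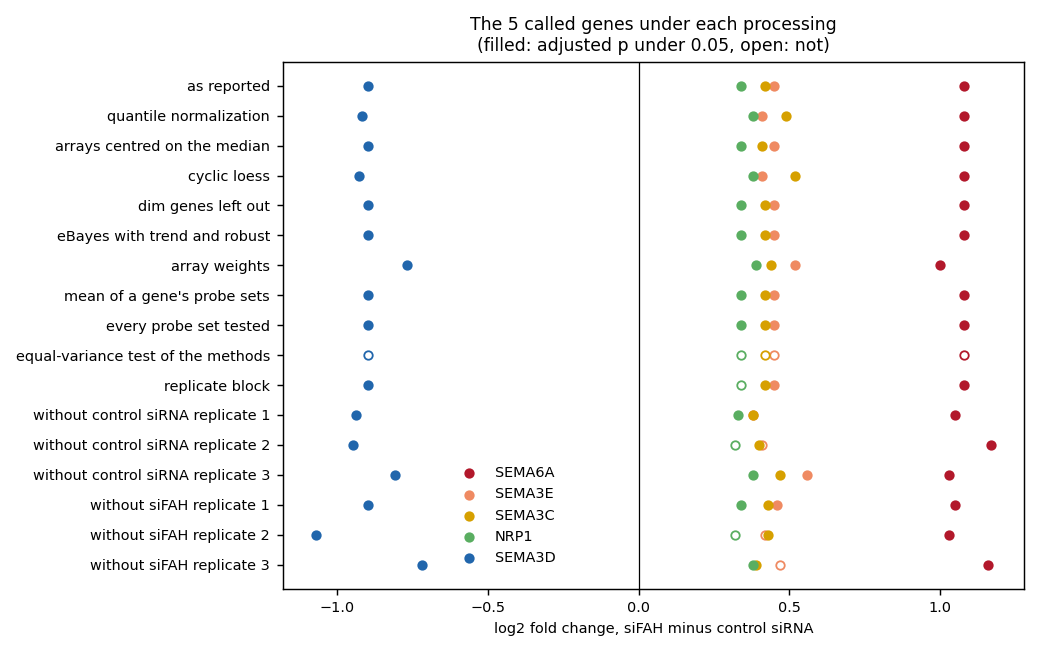
Log2 fold change (horizontal axis, siFAH minus control siRNA) of the 5 called genes under the reported processing and 16 alternatives (vertical axis). Filled points have an adjusted p under 0.05 and open points do not. No point crosses 0, SEMA6A stays between 1.00 and 1.17, and all 5 calls are lost with the equal-variance test.

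Partner genes of the pathway were taken from a list of receptors that join plexins or neuropilins, intracellular effectors and VEGF ligands. Of 64 genes listed, 59 were tested, of which 2 were higher, 8 lower and 49 not called, with a median log2 fold change of -0.045. The share called higher was 3.39%, against 3.48% of all genes, and the share called lower was 13.6%, against 6.38%. Of the tested partner genes 86.4% lay above the detection limit. Among the 13040 genes of the array above that limit, 539 were called higher and 1130 lower. The list is bright, brighter at its median than 71.9% of genes, and in that range the median log2 fold change of all genes was itself -0.065.

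Among 15 receptor partners, 2 fell and none rose. MET, the HGF receptor that associates with B-type plexins, gave 6.63, 6.70 and 6.96 against 6.39, 6.34 and 6.25 (log2 fold change -0.44, adjusted p = 0.0170, limma). L1CAM, an adhesion molecule that joins NRP1 in the SEMA3A receptor, gave 6.95, 6.92 and 6.95 against 6.71, 6.56 and 6.58 (log2 fold change -0.33, adjusted p = 0.0173, limma). The groups did not overlap for either gene. MET lost its call without siFAH replicate 2 or 3, and L1CAM without control siRNA replicate 2 or 3, without siFAH replicate 2 or 3 and with the replicate number as a block (adjusted p = 0.0555, limma).

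Of 40 intracellular partners, 5 fell and 1 rose. ROCK2, a kinase downstream of RHOA, fell by 0.48 (adjusted p = 0.00403, limma), FYN, a kinase of the SEMA3A response, fell by 0.46 (adjusted p = 0.0103, limma), and RHOA itself fell by 0.43 (adjusted p = 0.00724, limma). RAC1, which binds plexins directly, fell by 0.42 (adjusted p = 0.0167, limma), as did CDK5, another kinase of the SEMA3A response (-0.42, adjusted p = 0.02, limma). RND3, of a family of GTPases that bind plexins, rose by 0.31 (adjusted p = 0.0475, limma), and this call held in only 1 of 6 fits that leave out 1 array and was lost with arrays centred on the median (adjusted p = 0.0522, limma) and with the replicate number as a block (adjusted p = 0.0785, limma). The calls of ROCK2, FYN and RHOA held in all 6 such fits, while RAC1 lost its call without siFAH replicate 2 and CDK5 without control siRNA replicate 2 or 3 or siFAH replicate 3.

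Of 4 VEGF ligands tested, 1 rose, 1 fell and 2 were not called, VEGFB at a log2 fold change of 0.058 and PGF at 0.05 (both named to complete the list, after values were seen). VEGFC, a lymphatic growth factor that binds NRP2, gave 6.52, 6.65 and 6.59 against 7.25, 7.03 and 7.27. Every siFAH array was higher (log2 fold change 0.60, SE 0.082, adjusted p = 0.00272, limma), and the call held with each array left out. VEGFA, the main angiogenic ligand and a partner of NRP1, gave 7.66, 7.72 and 7.77 against 7.38, 7.38 and 7.53 (log2 fold change -0.29, adjusted p = 0.0353, limma), and lost its call in 4 of the 6 fits with 1 array left out, those without control siRNA replicate 2 or 3 and without siFAH replicate 1 or 2. After the scalings that level the trend with brightness VEGFA was no longer called either, at -0.20 after quantile normalization (adjusted p = 0.125, limma) and -0.19 after cyclic loess (adjusted p = 0.139, limma), nor was it with the replicate number as a block (adjusted p = 0.0749, limma).

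In the other families of guidance cues 3 of 42 tested genes (7.14%) were called higher, against 3.48% of all genes, and 3 (7.14%) lower, against 6.38%. Among 14 netrins and netrin receptors 1 rose and 1 fell, among 7 slits and robos 1 rose, and among 21 ephrins and Eph receptors 1 rose and 2 fell. The receptors UNC5C (log2 fold change 0.50, at a mean of 4.23 under the detection limit) and ROBO2 (0.43) were higher, and EPHA2 was lower (-0.60, adjusted p = 0.00458, limma). These 3 calls held with each array left out. NEO1 (-0.36), EFNB3 (0.26) and EPHB4 (-0.24) were called too, but lost their calls in 4, 5 and 6 of those 6 fits. None of NEO1, EFNB3 and EPHB4 was called after quantile normalization (adjusted p = 0.0559, 0.0660 and 0.0902, limma), after cyclic loess (0.0570, 0.0688 and 0.0964) or with the replicate number as a block (0.102, 0.115 and 0.125).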

How the data were processed

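Signals came from 6 Affymetrix Human Gene 1.0 ST arrays, 1 sample each. The deposited log2 values were made by the authors with RMA at default settings and global scaling, without a stated version or genome build (RMA is also named in the submitters' processing notes). The sources differ on the RNA kit. Of 28829 probe sets, 19291 carried 1 symbol in the platform annotation, 1735 several and 7803 none. Of the 19291, 19260 matched a current gene ID. Probe sets with several symbols or none were left out.

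The 18372 genes were fitted with lmFit and eBayes (limma 3.58.1, R 4.3.3) on all 6 arrays without covariates, with 4 residual and 6.52 prior degrees of freedom and two-sided p values. The methods' SAM test was not run, since it rests on regrouping the samples. The scripts were tested on simulated data. Promoters were read with Python 3.11.15 and pandas 2.3.3, the gap between probe sets was tested with scipy 1.17.1, and figures were drawn with matplotlib 3.10.9. The members and gene lists were chosen with earlier results of these data known. Named were every member, FAH, called partner genes with at least 1.2-fold change (up to 6 a list), the 3 called genes of largest change in each list of other guidance cues, and markers. Genes named for another reason are said to be so in the text. Alternatives were other scalings, filters, variance models, probe set rules, tests, a replicate block and leaving out each array. Arrays have no read depth, and their number limits the precision.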

Additional observations from a re-analysis of the deposited data

How the results depend on the processing

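The 3 arrays a group limit every call here. An unadjusted limma p under 0.05 was reached by 5 members higher, against 10.8% of all genes, and by 4 lower, against 15.3%. All alternatives kept the sign of the 5 called members. The methods name Student's t-test for mRNA differences in general, but SAM for selecting array genes. With such an equal-variance t-test, here adjusted over all genes, 0 members and 0 partner genes were higher, and 0 of either were lower. At its unadjusted p under 0.05, 4 members were higher and 4 lower. After adjustment only 6 genes of all were higher and 8 lower, and FAH stayed at -0.77 with an adjusted p of 0.118 (equal-variance t-test). With 1 array left out, 2 to 4 members were called higher (2 without control siRNA replicate 2 or siFAH replicate 2) and 1 lower. Calls among all genes ran from 267 to 653 higher and from 390 to 1192 lower in these fits, against 639 and 1172 as reported. They were 267 higher and 472 lower without control siRNA replicate 2, and 271 and 440 without siFAH replicate 2. Averaging all probe sets of each gene made 2 members lower, adding NRP2 at -0.33.

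Partner genes called higher numbered 4 after quantile normalization, cyclic loess or array weights, 1 after median centring and 1 to 3 with 1 array left out. Those called lower numbered 13 with array weights and 4 to 9 with 1 array left out. Counts over all genes moved too. Higher calls numbered 739 after quantile normalization, 762 after cyclic loess, 1170 with array weights and 622 after median centring, against 639 as reported. Lower calls over all genes numbered 1743 with array weights and 390 to 1192 with 1 array left out, against 1172 as reported. The share of lower among all called genes was 64.7% as reported, 54.2% after quantile normalization and 51.3% after cyclic loess. Members above the detection limit numbered 7 with keratin-associated protein genes as reference, 25 at the 90th percentile, 21 at the 99th and 20 with every array over its own limit.

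Same-numbered arrays deviated from their group means with r = -0.155, -0.089 and -0.274, and arrays of unlike number with r from -0.092 to 0.241. The numbers thus showed no sign of pairing, although deviations from means of 3 arrays cannot settle whether samples were paired. With the replicate number as a block, 3 members were higher and 1 lower, 1 partner gene was higher, and 299 genes of all were higher and 462 lower.

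Genes whose log2 fold change crossed 0 were all uncalled throughout. After quantile normalization and cyclic loess these were PLXNB3 (0.0041 and 0.0061), PLXNC1 (-0.0110 and -0.0083), SEMA3A (0.034 and 0.046), SEMA3G (-0.0037 and -0.0022), SEMA6B (0.059 and 0.066) and SEMA6C (-0.041 and -0.041). Array weights gave SEMA3F -0.0010, SEMA3G -0.053 and SEMA5A -0.045, and averaging probe sets gave SEMA4D 0.028. With 1 array left out, the values ran from -0.13 to 0.0064 for PLXNA1, from -0.061 to 0.024 for PLXNA3, from -0.088 to 0.032 for SEMA3A, from -0.037 to 0.062 for SEMA3F, from -0.019 to 0.10 for SEMA3G, from -0.044 to 0.011 for SEMA4F, from -0.0055 to 0.055 for SEMA4G, from -0.026 to 0.20 for SEMA5A, from -0.12 to 0.056 for SEMA5B, from -0.032 to 0.012 for SEMA6B and from -0.066 to 0.097 for SEMA6C. The cause was not tested.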
